A study of Mus musculus with 24 samples.

Results

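Genes that set the pace of the G1 phase were followed through RNA of sorted mouse intestinal secretory cells: the D cyclins Ccnd1, Ccnd2 and Ccnd3, their kinases Cdk4 and Cdk6, the kinase inhibitors Cdkn1a, Cdkn1b, Cdkn1c and Cdkn2b, and Myc. They were taken by symbol, 10 genes of the 45513 in the count files, and all 10 passed the filter on low counts in every comparison. The mice were adults of C57BL/6 background and were homozygous at the endogenous Atoh1 locus for Atoh1(WT)CreERT2 (WT) or for Atoh1(9S/T-A)CreERT2 (9S/T-A), in which 9 serines or threonines of ATOH1 were replaced by alanine. Both genotypes carried CreERT2 behind the Atoh1 coding sequence and the R26RtdTom reporter, and both received 3 mg of tamoxifen the day before live EpCAM+ tdTom+ cells were sorted from the proximal small intestine (SI) or the colon. The knock-in lines came from targeted embryonic stem cells, so WT mice carried CreERT2 as well. The sort collects cells that expressed Atoh1 when tamoxifen was given, which the study describes as goblet cells, Paneth cells and their progenitors. Each genotype was represented by 6 libraries per tissue, numbered 2 to 7.

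D cyclins bind CDK4 and CDK6 and start the phosphorylation of the retinoblastoma protein, which frees E2F factors to transcribe genes of S phase. The CIP/KIP proteins p21 (Cdkn1a), p27 (Cdkn1b) and p57 (Cdkn1c) bind cyclin-kinase complexes, and the INK4 protein p15 (Cdkn2b) binds CDK4 and CDK6 directly. MYC is a transcription factor that drives growth and is a known target of Wnt signalling in crypts, where cells leave the cycle as they mature into secretory or absorptive cells.

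In GRCm38 the D cyclins lie at chr7:144929931-144939869 (Ccnd1, minus strand), chr6:127125779-127151048 (Ccnd2, minus) and chr17:47505051-47599691 (Ccnd3, plus), and the kinases at chr10:127063534-127067920 (Cdk4, plus) and chr5:3341485-3531008 (Cdk6, plus). The inhibitors lie at chr17:29090979-29100722 (Cdkn1a, plus), chr6:134920401-134925513 (Cdkn1b, plus), chr7:143458350-143461050 (Cdkn1c, minus) and chr4:89306289-89311032 (Cdkn2b, minus), and Myc at chr15:61985341-61990374 (plus). All are protein-coding, and counts were summed over their exons. None overlaps another gene on its own strand, and Ccnd3 has a named pseudogene, Ccnd3-ps, that could share its reads.

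Total counts ranged from 36.0 to 65.8 M per library, and each member except Cdkn1c had at least 542 counts in every library. Cdkn1c had 108 to 435 counts. A single gene took 10.5% to 15.2% of the counts in SI and 1.66% to 3.58% in colon. Levels are therefore given as counts per M (CPM) after TMM scaling over all 24 libraries, and levels of different genes are compared only as RPKM, which is CPM per kilobase of exon. Summed goblet markers reached 316000 to 509000 CPM in SI and 36500 to 83600 CPM in colon. Summed Paneth markers reached 49100 to 104000 CPM in SI and 10000 to 27700 CPM in colon, where Mptx1 supplied most of them (9159 to 20980 CPM in WT). The libraries numbered 7 deviated together in all 4 groups, and calls that rest on them are given with and without them. Correlations between genes were computed with them only. Nothing in the labels says what a number marks, so p-values measure the spread between these libraries.

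Promoter sequences were shown for the pair of inhibitors that differed most between the tissues after TMM scaling and for both kinases. RefSeq promoters (GRCm38.p6) were at hand for 6 of the 10 members, Ccnd3, Cdk4, Cdk6, Cdkn1a, Cdkn1b and Cdkn2b, and not for Ccnd1, Ccnd2, Cdkn1c and Myc. The 250 bases before the start of Cdkn1a at the downstream of its 2 listed starts (chr17:29093519-29093768, plus strand) and of Cdkn2b (chr4:89311033-89311282, minus strand) are printed 5′ to 3′, with the letters GGGCGG, the GC box of SP1-type factors, in capitals.
Cdkn1a: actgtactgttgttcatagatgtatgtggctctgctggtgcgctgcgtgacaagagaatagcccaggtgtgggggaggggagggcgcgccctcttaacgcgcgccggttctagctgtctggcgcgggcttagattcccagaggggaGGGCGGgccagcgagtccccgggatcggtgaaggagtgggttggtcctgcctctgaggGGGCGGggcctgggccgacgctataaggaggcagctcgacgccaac
Cdkn2b: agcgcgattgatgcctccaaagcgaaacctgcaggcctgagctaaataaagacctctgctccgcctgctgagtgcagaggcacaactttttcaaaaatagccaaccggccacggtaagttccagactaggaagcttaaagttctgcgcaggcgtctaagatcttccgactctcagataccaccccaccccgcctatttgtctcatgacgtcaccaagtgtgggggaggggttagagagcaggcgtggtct
Cdkn1a held GGGCGG 104 and 46 bases before its start, and Cdkn2b held it on neither strand. The window before the upstream start of Cdkn1a (chr17:29090729-29090978), not printed, held none either. GGGCGG occurred on either strand in 32.7% of the 32851 promoter windows of this length, and 16.7% held it at least 2 times.

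The kinase promoters (Cdk4 at chr10:127063285-127063534 and Cdk6 at chr5:3343643-3343892, both plus strand) are printed with CACGTG, the E-box that MYC and MAX bind, in capitals. The Cdk6 window precedes its listed RefSeq start but lies inside the counted gene, which begins at chr5:3341485.
Cdk4: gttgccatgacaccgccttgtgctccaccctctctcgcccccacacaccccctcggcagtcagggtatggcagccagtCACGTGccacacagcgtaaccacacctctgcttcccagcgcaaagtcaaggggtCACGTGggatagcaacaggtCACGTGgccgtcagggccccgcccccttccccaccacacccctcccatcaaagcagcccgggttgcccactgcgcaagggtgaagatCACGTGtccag
Cdk6: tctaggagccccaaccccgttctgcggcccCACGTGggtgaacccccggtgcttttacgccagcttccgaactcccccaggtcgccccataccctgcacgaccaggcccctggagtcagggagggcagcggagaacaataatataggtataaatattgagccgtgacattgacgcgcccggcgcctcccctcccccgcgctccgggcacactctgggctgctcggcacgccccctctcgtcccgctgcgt
Cdk4 held CACGTG 4 times, at 172, 118, 98 and 11 bases before its start, and Cdk6 held it 1 time, at 220 bases. The motif reads the same on both strands and overlapped no GGGCGG here. It occurred in 6.02% of all windows, and 0.0609% held it at least 3 times. CAGCTG, an E-box of the class that basic helix-loop-helix factors such as ATOH1 bind, was in none of the 8 listed windows of the 6 members and in 13.0% of all windows. These matches describe letters and not binding.

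The members spanned a wide range of levels per length, and the inhibitors of the CIP/KIP and INK4 families led in SI. Cdkn1a had the highest RPKM in all 4 groups, 145.0 ± 15.5 in WT SI (SD, n = 6), 187.1 ± 33.6 in 9S/T-A SI, 52.87 ± 11.01 in WT colon and 53.1 ± 11.2 in 9S/T-A colon. Cdkn2b was the next in SI, at 82.8 ± 6.74 RPKM in WT and 96.1 ± 16.1 RPKM in 9S/T-A. In colon it stood at rank 7, at 9.66 ± 2.12 and 9.47 ± 3.37 RPKM. Cdk4 took that second rank in colon, at 26.5 ± 3.22 RPKM in WT and 25.97 ± 2.55 RPKM in 9S/T-A. Its range overlapped that of Ccnd1, the next in order, in both colon groups, and from Cdk4 to Ccnd3 every neighbour overlapped. In WT SI the ranges of Ccnd2 and Cdk4 overlapped, as did those of Ccnd1 and Myc and those of Myc and Cdkn1b. Ccnd1 and Cdkn1b did not overlap there. Cdk6 and Cdkn1c closed the order in all 4 groups, between 1.69 and 3.99 RPKM on average.

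**Figure D1:**
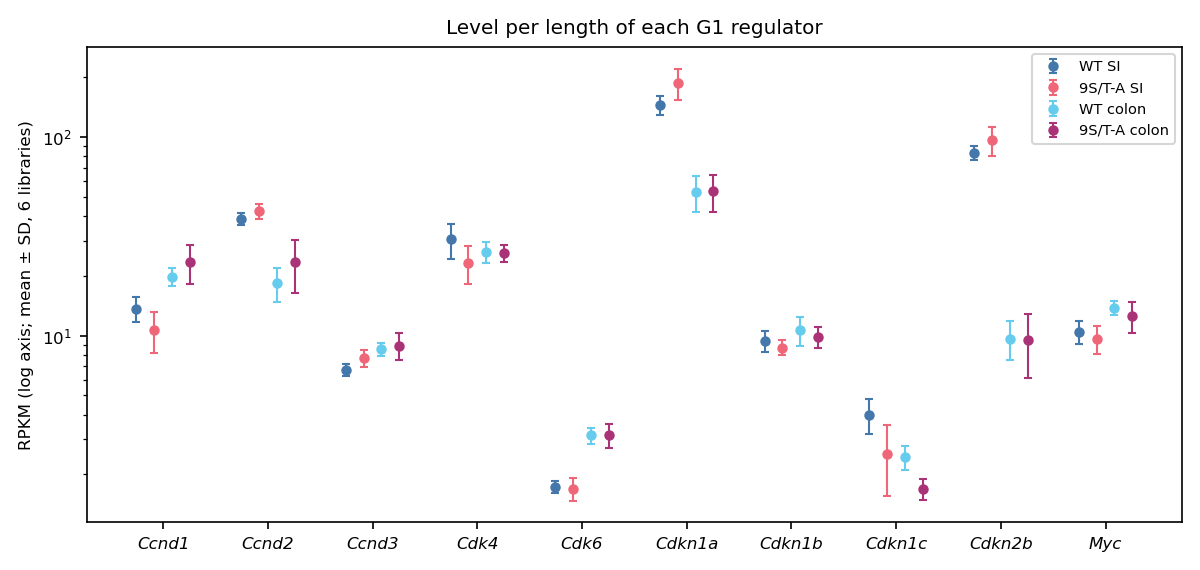
Mean RPKM of each member in the 4 groups on a log axis, with bars of 1 SD over 6 libraries. Cdkn1a is the highest gene in each group, and Cdkn2b drops from 82.8 RPKM in WT SI to 9.66 RPKM in WT colon.

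The study asked whether ATOH1 that cannot be phosphorylated at these sites moves secretory precursors out of the cell cycle, and the members were first compared between genotypes. By the main test, edgeR's quasi-likelihood test with no block, none of the 10 members was called changed by genotype in SI or in colon. DESeq2 called Cdkn1c in colon. With the replicate number as a block, though numbers were not taken to pair the genotypes, edgeR called Cdkn1c in SI and in colon. Atoh1, the altered gene, was read by its level, which does not test the amino acid changes: it had 79.0 to 120.7 CPM in WT SI and 57.7 to 90.1 CPM in 9S/T-A SI (log2 fold change -0.30, edgeR adjusted p = 0.23). In colon it had 84.1 to 124.2 CPM in WT and 66.9 to 107.8 CPM in 9S/T-A (-0.24, adjusted p = 0.558). In SI, edgeR called 315 of 16236 genes (1.94%) at an adjusted p under 0.05 and 0 of the 10 members. At an unadjusted p under 0.05 it had 5 members, where 15.7% of all genes had such a p. DESeq2 also called 0 members in SI. In colon edgeR called 54 of 16997 genes (0.318%) and 0 members, and 1 member had an unadjusted p under 0.05, as did 8.81% of all genes. DESeq2 called 1 member there. The median log2 fold change of the members was -0.07 in SI and 0.01 in colon, beside 0.00 for all genes tested in each tissue.

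No D cyclin was called by genotype. Ccnd1, the cyclin most tied to growth signals, had a lowest level of 42.2 CPM, a median of 49.9 and a highest of 63.0 in WT SI, against 32.2, 39.3 and 56.9 CPM in 9S/T-A SI. The groups overlapped, and the log2 fold change of -0.36 (SE 0.141) had an adjusted p of 0.219 in edgeR. In colon Ccnd1 ran from 65.6 over a median of 77.7 to 87.2 CPM in WT and from 67.0 over 83.5 to 114.3 CPM in 9S/T-A, again with overlap (0.26, SE 0.122, adjusted p = 0.571). The difference of these differences, 0.60 (95% interval 0.19 to 1.01), had an unadjusted edgeR p of 0.00549 and an adjusted p of 0.224. This was the only one of the 10 members with an unadjusted p under 0.05 in the test of genotype by tissue, where 9.69% of all genes had one. That test called 74 of 17953 genes (0.412%) and 0 members, and DESeq2 also called 0 members. With libraries of 1 genotype and 1 number as a block it called 342 genes and again 0 members, with an adjusted p of 0.0535 for Ccnd1.

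Ccnd2 had 195.3, 225.5 and 236.7 CPM as lowest, median and highest in WT SI and 214.3, 236.9 and 266.4 CPM in 9S/T-A SI. In colon its 9S/T-A libraries were widely spread, from 77.1 over 143.2 to 181.7 CPM, around the WT range of 82.5 to 138.9 CPM. The log2 fold changes were 0.13 in SI (95% interval -0.04 to 0.29) and 0.37 in colon (-0.03 to 0.77). Ccnd3 was at 53.5, 59.2 and 64.5 CPM in WT SI and at 57.4, 67.5 and 78.0 CPM in 9S/T-A SI, with 0.20 (SE 0.0757, edgeR adjusted p = 0.203). In colon it was at 64.1 to 78.6 CPM and 62.1 to 97.5 CPM (0.07, interval -0.11 to 0.25).

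Neither kinase was called by genotype. Cdk4, the more abundant transcript, ran from 77.8 over 96.8 to 124.1 CPM in WT SI and from 56.8 over 73.8 to 100.3 CPM in 9S/T-A SI, so the groups overlapped. Its log2 fold change of -0.40 (SE 0.152) had an edgeR adjusted p of 0.218. In colon the groups lay on top of each other, at 71.0 to 99.7 CPM and 74.4 to 95.8 CPM, with -0.01 and a 95% interval of -0.18 to 0.17. Cdk6 showed no called difference in either tissue, with intervals of -0.22 to 0.16 in SI and -0.20 to 0.25 in colon. None of the cycling cell markers was called in SI. All 20 had a negative log2 fold change there (median -0.36), their summed level was 591.0 to 856.0 CPM in WT and 434.0 to 746.0 CPM in 9S/T-A, and none was at 0. In colon all 20 were positive (median 0.38, 0 called), with sums of 293.0 to 474.0 and 327.0 to 576.0 CPM. For Mki67, which dividing cells express, the log2 fold change was -0.32 in SI (adjusted p = 0.185) and 0.47 in colon (adjusted p = 0.409). Fewer cycling cells and less RNA per cell cannot be told apart in these bulk samples, and the part of cycling cells in the values of Cdk4 and Ccnd1 was not tested.

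Cdkn1a, the p21 gene, had the smallest p of the members in SI. Its lowest, median and highest levels were 267.3, 321.5 and 373.5 CPM in WT SI and 302.3, 408.3 and 532.3 CPM in 9S/T-A SI. The groups overlapped. Number 2 gave both the highest WT library, at 373.5 CPM, and the lowest 9S/T-A library, at 302.3 CPM. The log2 fold change was 0.37 (SE 0.117, edgeR adjusted p = 0.14). Without that 9S/T-A library it was 0.44 with an adjusted p of 0.0284, and Cdkn2b was then called as well (0.30, adjusted p = 0.0485). Among the fits that each left out 1 of the 12 SI libraries, this was the only one that called a member. In colon Cdkn1a was at 90.8, 117.2 and 156.0 CPM in WT and at 85.0, 115.8 and 159.6 CPM in 9S/T-A, and the log2 fold change of 0.03 had a 95% interval of -0.29 to 0.34.

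Cdkn2b, whose p15 protein blocks CDK4 and CDK6, had 100.4, 118.3 and 126.2 CPM in WT SI and 92.6, 140.5 and 153.0 CPM in 9S/T-A SI. Number 2 again gave the lowest 9S/T-A value, below all WT libraries, while the other 5 lay above all of them. With all libraries the log2 fold change was 0.21 (SE 0.108, edgeR adjusted p = 0.36), and in colon it was -0.01 (95% interval -0.46 to 0.43). Cdkn1b, which holds p27, differed by -0.11 in SI (interval -0.30 to 0.08) and -0.09 in colon (-0.35 to 0.17). Its levels lay between 35.8 and 48.1 CPM in the 12 SI libraries and between 39.8 and 63.7 CPM in the 12 colon libraries.

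Cdkn1c, which encodes p57 and is the imprinted member of the family, had a lower median in 9S/T-A in both tissues. In WT SI it had 5.17 CPM in its lowest library, a median of 8.18 and 9.53 in its highest, against 2.83, 4.98 and 6.73 CPM in 9S/T-A SI. The 9S/T-A libraries fell into 3 between 2.83 and 3.44 CPM (numbers 2, 4 and 5) and 3 between 6.52 and 6.73 CPM (numbers 3, 6 and 7). The groups overlapped through WT number 2, at 5.17 CPM, and the log2 fold change of -0.65 (SE 0.236) had an edgeR adjusted p of 0.196. In colon it had 3.78, 4.58 and 5.58 CPM in WT and 2.82, 3.28 and 3.70 CPM in 9S/T-A, and the groups did not overlap. This held for 0.906% of the genes in colon, and for 2.08% in SI, where no member was separated. The colon log2 fold change of -0.51 (SE 0.124, 95% interval -0.78 to -0.25) had an unadjusted p of 0.000996 and an adjusted p of 0.13 in edgeR. DESeq2 gave -0.51 with an adjusted p of 0.0133 and called 254 genes in colon, 1.49% of those tested. With the replicate number as a block, edgeR gave -0.71 in SI (adjusted p = 0.0319) and -0.51 in colon (adjusted p = 0.0245). That fit called 2.94% of the genes tested in SI and 2.27% in colon.

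Enteroendocrine markers were measured beside Cdkn1c. Their summed level was 219.0 to 533.0 CPM in WT SI and 190.0 to 447.0 CPM in 9S/T-A SI, and 82.2 to 142.0 and 64.3 to 126.0 CPM in colon. The median log2 fold change of the 12 markers was -0.69 in SI, where they ran from -1.16 to 0.42, and -0.50 in colon, with 0 called in either, and none was at 0. Tuft markers, which summed to 74.3 to 170.0 CPM in WT SI against 26.2 to 149.0 CPM in 9S/T-A SI, and to 20.9 to 61.1 against 12.7 to 48.1 CPM in colon, also had negative medians, -0.81 in SI, where 1 of 9 tested was called lower, Pou2f3, a factor needed for tuft cells (-1.18, edgeR adjusted p = 0.0197), and -0.50 in colon with 0 called. The part of these cells in the Cdkn1c values was not tested. Myc had 22.8 to 33.2 CPM in WT SI and 22.1 to 32.9 CPM in 9S/T-A SI, and 34.3 to 42.0 CPM and 29.1 to 45.2 CPM in colon. Its log2 fold changes were -0.12 in both tissues, with intervals of -0.36 to 0.12 in SI and -0.35 to 0.11 in colon.

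**Figure D2:**
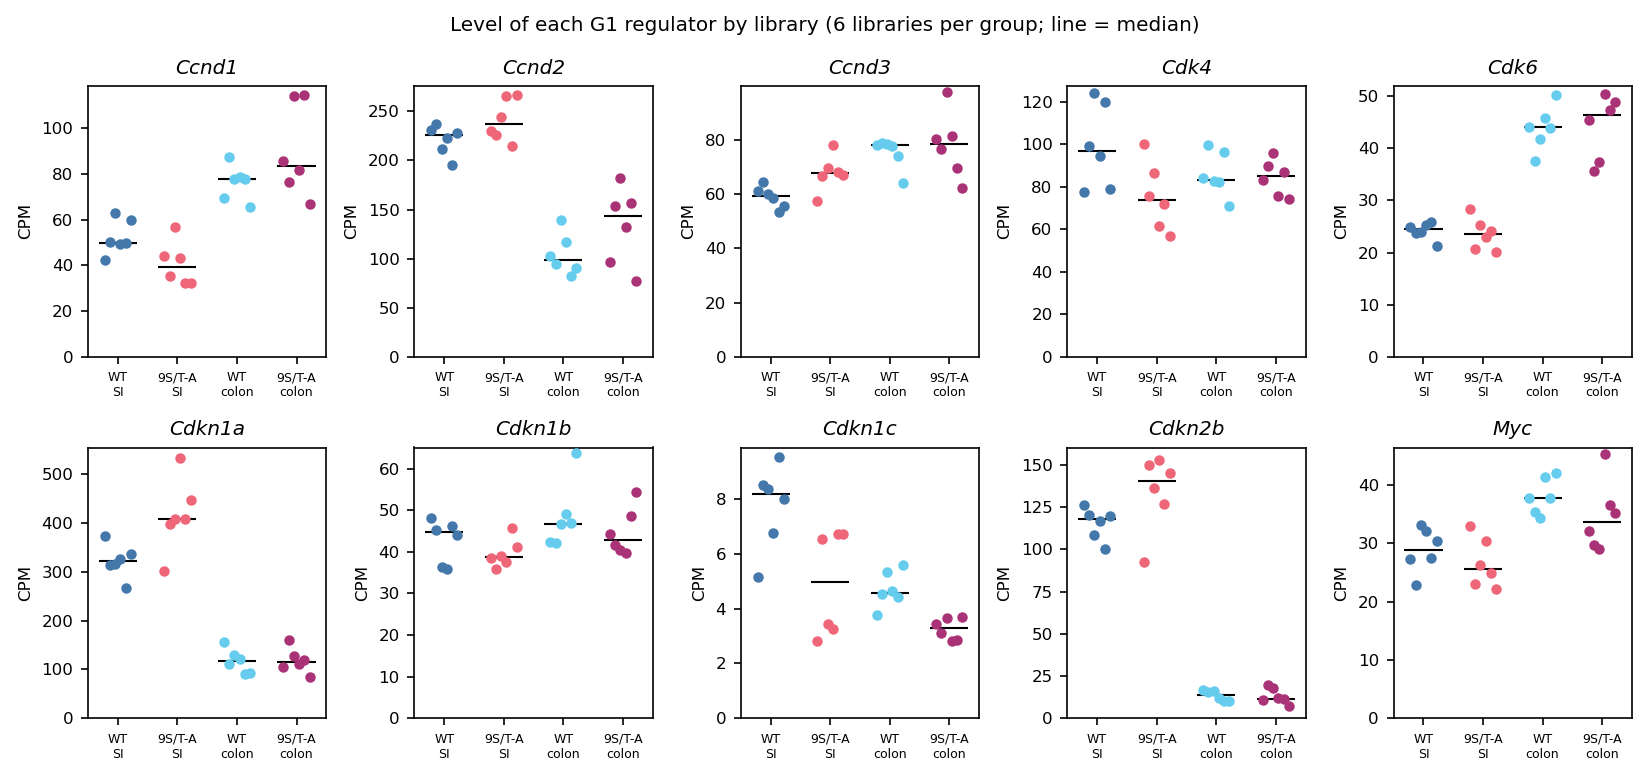
CPM of each member in each library, 6 points per group in the order of the replicate numbers, with a line at the median and axes that start at 0. SI and colon separate without overlap in both genotypes for Ccnd2, Cdkn1a and Cdkn2b, lower in colon, and for Ccnd1 and Cdk6, higher in colon. Cdkn1c is the gene whose 9S/T-A colon points, 2.82 to 3.70 CPM, all lie below the WT colon points, 3.78 to 5.58 CPM.

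Tissue separated the members far more than genotype. The main tests of tissue had no term for the replicate number, and with it as a block only the call of Cdk4 in WT changed. In WT, 8 of the 10 members were called between colon and SI, 4 higher and 4 lower in colon, where 63.6% of the 16979 genes tested were called. In 9S/T-A, 7 of 10 were called, 3 higher and 4 lower, where 60.9% of 16938 genes were called. The libraries of both tissues did not overlap for 6 members in WT (43.5% of all genes) and for 5 members in 9S/T-A (41.1%). These shares are near those of all genes, so the number of calls says little about the members, and their sizes and directions are described. With plain library totals in place of TMM factors, the median log2 fold change of all genes was 0.74 in WT and 0.85 in 9S/T-A. Relative to that shift, the members' values moved by at most 0.0619 from those below. Not relative to it, the calls of Cdkn1c in both genotypes (-0.03 with adjusted p = 0.856 in WT) and of Ccnd2 in 9S/T-A (-0.10, adjusted p = 0.515) were lost. Calls were then gained, all higher in colon, for Cdk4 and Cdkn1b (0.88, adjusted p = 7.89e-06) in WT and for Ccnd3 (0.97, adjusted p = 4.12e-08), Cdk4 (0.93, adjusted p = 1.07e-05) and Cdkn1b (0.97, adjusted p = 2.94e-06) in 9S/T-A.

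Ccnd1 and Ccnd2 differed between the tissues in opposite directions, and in colon their RPKM ranges overlapped. Ccnd2 was lower in colon in 6 of 6 pairs in both genotypes: the 12 SI libraries had 195.3 to 266.4 CPM and the 12 colon libraries 77.1 to 181.7 CPM. The log2 fold change was -1.12 in WT (SE 0.113, edgeR adjusted p = 4.38e-07) and -0.89 in 9S/T-A (SE 0.172, adjusted p = 0.00036). Ccnd1 was higher in colon in 6 of 6 pairs, with 65.6 to 114.3 CPM in the 12 colon libraries and 32.2 to 63.0 CPM in the 12 SI libraries. Its log2 fold change was 0.51 in WT (SE 0.0974, adjusted p = 0.000309) and 1.11 in 9S/T-A (SE 0.163, adjusted p = 2.73e-05). Ccnd3 was higher in WT colon in 6 of 6 pairs (0.32, adjusted p = 0.000758) with ranges that touched, 53.5 to 64.5 CPM in SI and 64.1 to 78.6 CPM in colon. In 9S/T-A its difference of 0.17 (95% interval -0.05 to 0.39) was not called, and without number 7 of 9S/T-A colon it was 0.23 with an adjusted p of 0.0432. In the joint fit of all 24 libraries it was 0.20 with an adjusted p of 0.0471.

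As shares of the summed D-cyclin RPKM in a library, Ccnd2 made up 65.6% ± 2.70 in WT SI against 69.8% ± 2.92 in 9S/T-A SI (SD, n = 6 each), and 39.0% ± 4.48 and 41.4% ± 5.22 in colon. Ccnd1 made up 23.1% ± 3.04 and 17.4% ± 3.26 in SI, and 42.6% ± 3.75 and 42.3% ± 4.27 in colon. No SI library had less than 61.5% Ccnd2 and no colon library more than 48.5%. These shares are the tissue differences above on another scale and were not tested.

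**Figure D3:**
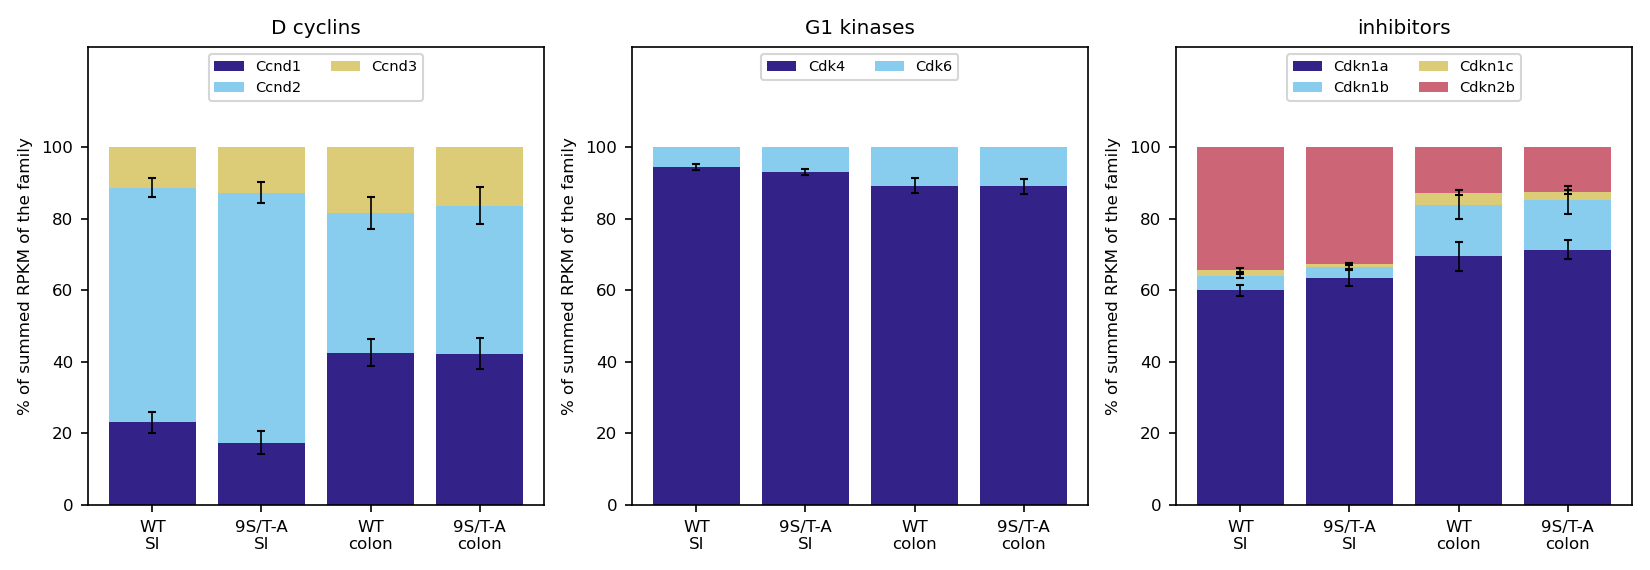
Share of each gene in the summed RPKM of its family, as the mean over 6 libraries per group. Bars show 1 SD of the segment that ends there, and the top segment has none. Ccnd2 leads the D cyclins in SI (65.6% in WT), and Ccnd1 matches it in colon (42.6% in WT).

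Cdk6 was higher in colon in 6 of 6 pairs in both genotypes, with 20.2 to 28.4 CPM in the 12 SI libraries and 35.7 to 50.5 CPM in the 12 colon libraries, which did not overlap. The log2 fold change was 0.83 in WT (SE 0.0761, edgeR adjusted p = 1.51e-07) and 0.88 in 9S/T-A (SE 0.109, adjusted p = 5.13e-06). Cdk4 was not called in either genotype, at -0.24 in WT (95% interval -0.50 to 0.02, adjusted p = 0.103) and 0.14 in 9S/T-A (-0.13 to 0.40). In WT the call of Cdk4 depended on the fit. With the replicate number as a block, the fit that keeps the pairs, it was -0.22 with an edgeR adjusted p of 0.0309. With sex as a covariate it was -0.22 with 0.0319, without number 7 of WT SI -0.27 with 0.0456, and with plain library totals 0.46 with 0.00547. Cdk4 stayed the main kinase transcript throughout. Its RPKM was 17.6 ± 3.14 times that of Cdk6 in WT SI, 13.7 ± 1.75 times in 9S/T-A SI, 8.56 ± 1.78 times in WT colon and 8.45 ± 2.03 times in 9S/T-A colon (SD, n = 6 libraries each).

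With TMM factors, the largest tissue differences belonged to 2 inhibitors. Cdkn2b had 92.6 to 153.0 CPM in the 12 SI libraries and 7.41 to 19.9 CPM in the 12 colon libraries. It was 3.13 lower on the log2 scale in WT colon (log2 fold change -3.13, SE 0.132, edgeR adjusted p = 1.61e-11) and -3.37 in 9S/T-A (SE 0.218, adjusted p = 3.6e-09). Cdkn1a had 267.3 to 532.3 CPM in SI and 85.0 to 159.6 CPM in colon, a log2 fold change of -1.49 in WT (SE 0.127, adjusted p = 6.13e-08) and -1.85 in 9S/T-A (SE 0.156, adjusted p = 7.39e-08). Both were lower in colon in 6 of 6 pairs of each genotype, and every fit that left out 1 library kept the calls. Cdkn1c was lower in colon as well. The log2 fold change was -0.74 in WT (SE 0.146, adjusted p = 0.000359) with 6 of 6 pairs lower, and -0.62 in 9S/T-A (SE 0.223, adjusted p = 0.025) with 4 of 6 pairs lower, and there plain library totals turned its sign (0.18, adjusted p = 0.494). The 9S/T-A call was lost without any 1 of 5 libraries, numbers 3, 6 and 7 of SI and 5 and 6 of colon (adjusted p = 0.0515 to 0.0741), and without number 7 in both tissues (-0.55, adjusted p = 0.0537). Cdkn1b was not called, with 0.15 in both genotypes (95% intervals -0.08 to 0.38 and -0.05 to 0.35).

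Summed over the 4 inhibitors, RPKM was 241.2 ± 21.3 in WT SI and 75.6 ± 11.7 in WT colon (SD, n = 6 each), and 294.5 ± 48.0 and 74.1 ± 13.6 in 9S/T-A. Beside the summed D cyclins, this was 4.08 ± 0.30 times in WT SI, 4.86 ± 0.69 times in 9S/T-A SI, 1.62 ± 0.23 times in WT colon and 1.36 ± 0.24 times in 9S/T-A colon. The lowest SI library stood at 3.64 and the highest colon library at 2.07. Within the inhibitors Cdkn2b gave 34.4% ± 0.90 of the RPKM in WT SI and 12.7% ± 1.66 in WT colon, and Cdkn1b gave 3.91% ± 0.58 and 14.5% ± 3.97. Cdkn1b thus made up a larger share in colon while its own level was not called different and the levels of the other inhibitors were lower.

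Myc was higher in colon. It had 22.8 to 33.2 CPM in WT SI and 34.3 to 42.0 CPM in WT colon, 6 of 6 pairs higher (log2 fold change 0.37, SE 0.0882, edgeR adjusted p = 0.00181). In 9S/T-A it had 22.1 to 32.9 CPM in SI and 29.1 to 45.2 CPM in colon, 5 of 6 pairs higher (0.35, SE 0.123, adjusted p = 0.0212). That call was lost without number 3 of SI (adjusted p = 0.0505), without number 5 of colon (0.27, adjusted p = 0.056) and without number 7 in both tissues (0.30, adjusted p = 0.0587). The tissue differences of Ccnd3, Cdk4 and Cdkn1c in the 2 genotypes were not shown to differ from each other by the test of genotype by tissue (adjusted p = 0.804, 0.536 and 0.968), whatever side of the threshold each had.

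**Figure D4:**
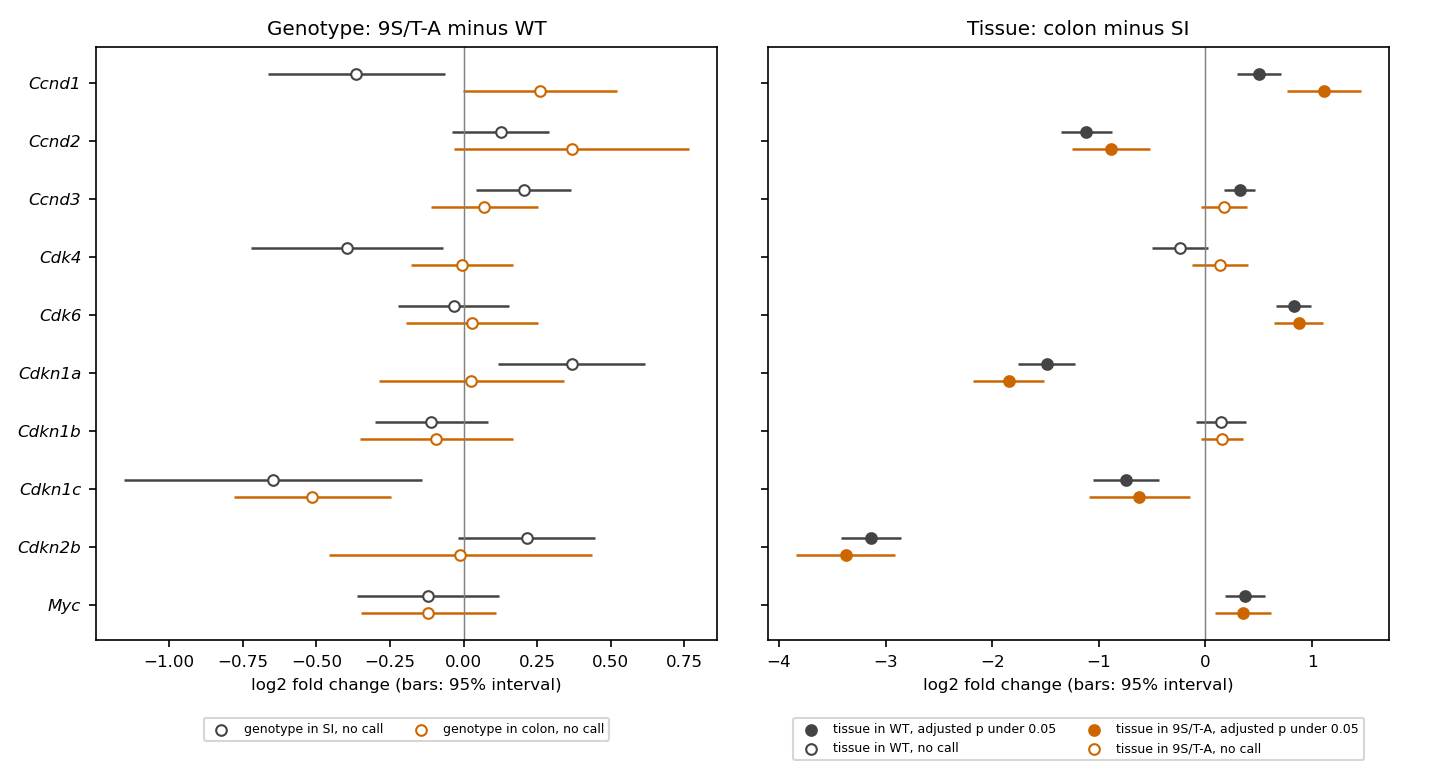
Log2 fold changes of the members with 95% intervals, for genotype in SI and colon (left) and for tissue in WT and 9S/T-A (right, on a wider axis). Filled points had an edgeR adjusted p under 0.05: none on the left, 8 in WT and 7 in 9S/T-A on the right, from -3.37 for Cdkn2b to 1.11 for Ccnd1.

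Genes next to the members in the pathway were counted beside them. Of the 28 G1 to S partners, 27 were tested. By genotype 0 were called in either tissue, where 1.94% of all genes in SI and 0.318% in colon were. Their median log2 fold change by genotype was -0.125 in SI and 0.172 in colon, beside 0.00 for all genes in each tissue. By tissue 4 were higher and 18 lower in WT colon (median -0.45, beside 0.03 for all genes), where 63.6% of all genes were called. In 9S/T-A colon 5 were higher and 9 lower (median -0.16, beside 0.04), where 60.9% of all genes were called. E2f2, an E2F activator, was -1.87 in WT and -1.53 in 9S/T-A, and E2f7, an atypical E2F repressor, was -1.61 in WT. Rb1, the retinoblastoma gene that cyclin D kinases act on, was -1.10 and -1.06 and was among those named by size in 9S/T-A. E2f5, an E2F that pairs with pocket proteins, was higher in colon by 0.87 and 0.99. Mnat1, a subunit of the kinase that activates CDKs, was higher by 0.60 in WT, and E2f6 by 0.67 in 9S/T-A. The test of genotype by tissue called 0 of the 27 partners (median 0.25, beside -0.02 for all genes), where 0.412% of all genes were called. Cdkn2a, the INK4 gene beside Cdkn2b, was not tested: it had 0 counts in all 12 colon libraries and at most 6 in an SI library.

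The cycling cell markers were lower in WT colon for 19 of 20 (median -1.12), led by Top2a (-1.48) and Plk1 (-1.42), and lower for 6 and higher for 1 in 9S/T-A (median -0.37), with Ube2c at -0.66, Top2a at -0.64 and Tyms at 0.39. Mki67 was -1.41 in WT and -0.64 in 9S/T-A. In WT they thus went the opposite way from Ccnd1, Cdk6 and Myc, and in 9S/T-A most were not called. Calls covered 63.6% of all genes in WT and 60.9% in 9S/T-A. The part of cycling cells in the tissue differences was not tested. The test of genotype by tissue gave 0 called of 20 (median 0.72, beside -0.02 for all genes).

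Of the 12 MYC partners, 3 were higher and 4 lower in WT colon, where 63.6% of all genes were called. In 9S/T-A 2 were higher and 4 lower, where 60.9% of all genes were called, and 0 were called by genotype. Mxd1, which competes with MYC for MAX and marks cells leaving the cycle, had the largest difference. It had 481.6 to 911.8 CPM in WT SI and 44.7 to 77.8 CPM in WT colon (log2 fold change -3.55, edgeR adjusted p = 4.77e-10), and -3.23 in 9S/T-A. Mxd4, of the same family, went the other way (0.91 and 0.73), Mlxipl, a glucose-responsive relative, was -1.67 and -1.82, and Mlx and Mycl were higher by 0.23 in WT and 0.26 in 9S/T-A.

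The inputs known to act on Cdkn1a and Cdkn2b were counted as well. Beside these counts, 63.6% of all genes were called by tissue in WT and 60.9% in 9S/T-A. By genotype 1.94% were called in SI and 0.318% in colon. SMAD targets, which respond to TGF-beta and BMP signals that also raise Cdkn2b, were lower in colon for 7 of 9 tested in both genotypes and higher for 1 (medians -1.15 in WT and -0.89 in 9S/T-A). Id3 (-2.65 and -2.60) and Id1 (-1.86 and -1.85) led them, and Tgif1, a SMAD corepressor, was higher (0.58 and 0.52). Id2, an inhibitor of basic helix-loop-helix factors, was the SMAD target called by genotype. It ran from 23.98 to 38.8 CPM in WT SI and from 41.5 to 59.1 CPM in 9S/T-A SI (0.72, edgeR adjusted p = 0.00225), and from 8.51 to 11.1 and 13.0 to 18.0 CPM in colon (0.58, adjusted p = 0.0393). The p53 targets, of which Cdkn1a is the best known but which the list leaves out, were split by tissue: 6 higher and 4 lower in WT colon, 4 higher and 5 lower in 9S/T-A. Trp53inp1 was higher by 1.26 and 1.19, Plk2 by 1.04 in WT and Aen by 0.74 in 9S/T-A, while Sesn1 (-1.01 and -0.73) and Fas (-0.89 and -1.21) were lower. By genotype Plk2 was called in SI, higher in 9S/T-A (0.71, adjusted p = 0.0198), and its genotype difference was called different between the tissues (-1.19, adjusted p = 0.00778). Of the 13 Wnt targets tested, 0 were called by genotype, 3 were higher and 5 lower in WT colon, and 4 were higher and 4 lower in 9S/T-A. Cd44 (1.38 and 1.43) and Ephb2 (0.71 and 1.07) were higher in colon, and Nkd1 (-3.45 and -3.54) and Sp5 (-2.39 and -1.98) were lower. The part of these inputs in the differences of Cdkn1a, Cdkn2b and Myc was not tested.

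**Figure D5:**
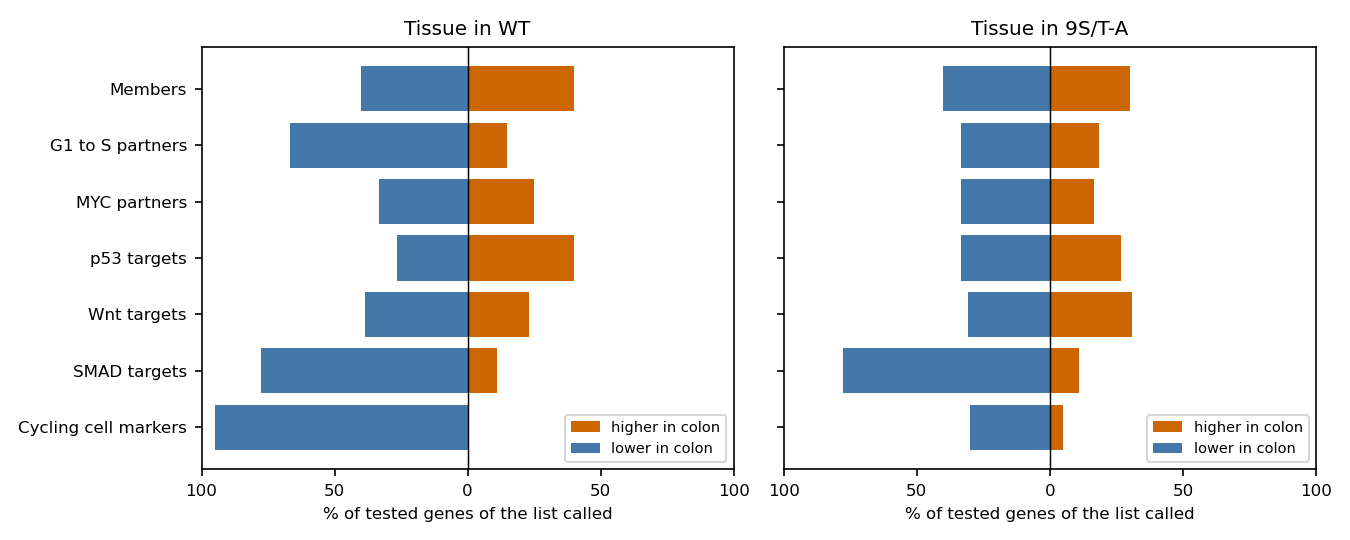
Percent of the tested genes of each list called higher (right) or lower (left) in colon than in SI, in WT and in 9S/T-A. SMAD targets lean to the lower side in both genotypes (7 of 9), and 19 of 20 cycling cell markers do in WT but 6 of 20 in 9S/T-A. Of all genes tested, 63.6% were called in WT and 60.9% in 9S/T-A, in either direction.

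Markers of the other cells that the sort could hold also differed by tissue, where 63.6% of all genes were called in WT and 60.9% in 9S/T-A. In WT colon, lower calls outnumbered higher ones for goblet (8 and 1), Paneth (10 and 2), enteroendocrine (11 and 0), tuft (8 and 0), absorptive (9 and 2) and stem cell markers (7 and 3), as in 9S/T-A (8 and 1, 8 and 3, 11 and 0, 7 and 0, 9 and 2, 6 and 3). Leukocyte markers were lower for 7 in both and higher for 1 in 9S/T-A, with summed levels of 1550 to 2860 CPM in SI and 7.60 to 11.7 CPM in colon. Without Lyz2, whose reads can be confused with those of the Paneth gene Lyz1, the sums were 14.7 to 39.9 CPM and 4.29 to 7.92 CPM. Of the stromal markers 1 was higher and 1 lower in each genotype, and they summed to 7.05 to 22.3 CPM in all 24 libraries, with Col3a1 and Lum at 0 in all of them. By genotype in SI, 6 of 12 Paneth markers were lower, led by Mptx2 (-4.64), Mmp7 (-1.25) and Ang4 (-1.11), and so were the stem cell marker Prom1 (-0.36) and the stromal marker Vim (-1.30), while 0 goblet, enteroendocrine or absorptive markers were called. In colon only the goblet gene Spink4 was called among these lists (0.68, edgeR adjusted p = 0.0287). The shares of all genes called by genotype were 1.94% in SI and 0.318% in colon. The part of cell mixture in the differences of the members was not tested.

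The libraries of a group also varied around their own mean, and some members did so together. After group means were subtracted from log2 CPM over the 24 libraries, among 12894 genes, the gene most like both Cdkn1a (Pearson r = 0.912) and Cdkn2b (0.938) was Hsd17b2. Next came Map2k1 (0.886) for Cdkn1a and S100a10 (0.925) for Cdkn2b, and Cdkn1a and Cdkn2b had 0.865 with each other. Ccnd1 was most like Sdf2l1 (0.881) and Pdia4 (0.862), chaperones of the endoplasmic reticulum, Ccnd2 most like Nacc1 (0.864) and Gbf1 (0.833), and Ccnd3 most like Cltb (0.909) and Actr1a (0.879). Cdk4 was most like a gene with no symbol in the annotation used and then the splicing gene Snrpf (0.941), and Cdk6 like Map3k21 (0.793) and Gm6710 (0.771). Cdkn1b was most like the zinc finger genes Zfp946 (0.922) and Zbtb6 (0.859), Cdkn1c like Rfx6 (0.855), a factor of enteroendocrine cells, and Rimbp2 (0.853), and Myc like Tmem201 (0.843) and Usp10 (0.788). These values describe libraries that share depth and cell mixture, and they carry no test.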

How the data were processed

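Gene counts of 24 stranded mRNA libraries were deposited by the authors as raw counts per Ensembl gene, not normalized. Per the file headers and labels, single-end reads were aligned to GRCm38 with TopHat2 2.1.1 and counted over exons by strand with featureCounts (Subread 1.5.2), primary alignments only, so reads shared by close paralogs are uncertain. GENCODE M21 named 44585 of 45513 genes (97.96%), and of the named genes 36576 had the same position. Of 60 same-group pairs of libraries 0 were identical, and all 24 matched their sex label.

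Members and lists were chosen with earlier results of these data known. Named genes were the 10 members, Atoh1, Mki67, from each list the called genes with the largest log2 fold change (up to 3 per direction by genotype, 2 by tissue), and the 2 genes most like each member. Cdkn2a, Mptx1, Lyz2, Col3a1 and Lum were named outside this rule, after their values were seen.

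The main test was edgeR 4.0.16 in R 4.3.3: filterByExpr, TMM, quasi-likelihood F test, two-sided, Benjamini-Hochberg adjustment over all genes tested, with a call at 0.05. Standard errors came from the F statistic. Alternatives were DESeq2 1.42.0, RLE factors, plain library totals, no filter, a mean of at least 10 counts, a replicate block, sex, all 24 libraries in one fit, and each library left out. Leaving out number 7 in every group was chosen after seeing the data. Within a genotype, the SI and the colon library of 1 number deviated together across genes (r = 0.154 to 0.55 in WT, 0.14 to 0.632 in 9S/T-A), so the numbers were taken to pair the tissues. The main tests had no term for these pairs, and the replicate block was the alternative that had one. In simulated counts the test recovered part of the known changes, fewer of the smaller than of the larger ones.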

Additional observations from a re-analysis of the deposited data

Results flagged for a closer look

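In 2 of the 40 sets of 6 values that the members make in the 4 groups, 1 library lay apart from the other 5 by Dixon's criterion, which chance alone passes in about 1 of 20 sets. Both were WT colon number 7. Ccnd3 was at 64.1 CPM there, while the others had 73.9 to 78.6 CPM. Cdkn1b was at 63.7 CPM there, while the next highest was at 49.0 CPM. Without number 7 in every group, the tissue difference of Ccnd3 in WT stayed called and that of Cdkn1b stayed without a call.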

How the results depend on the processing

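Tissue calls kept their direction under DESeq2, RLE factors, both filters, sex and the joint fit, and the calls lost without 1 library were those of Cdkn1c and Myc in 9S/T-A. For genotype in SI, 1 member was called with the replicate block (Cdkn1c, -0.71, adjusted p = 0.0319), and 779 genes by DESeq2, 477 with the block and 520 in the joint fit of 24 libraries. In colon 1 member, Cdkn1c, was called by DESeq2 and with the block (-0.51, adjusted p = 0.0245), and 254 genes by DESeq2, 90 without a filter, 385 with the block, 89 with sex and 103 in the joint fit. WT and 9S/T-A libraries of 1 number and tissue share that number and their sex. They were not taken as pairs since r was not over 0.1 in every one: it was -0.0696 to 0.659 in SI and 0.0233 to 0.836 in colon. Not every library correlated best with its own number, which was also so for number 4 of the WT tissue pairs. Mean r within a number was 0.186 in SI and 0.389 in colon, beside 0.274 for the tissue pairs of WT and 0.347 for those of 9S/T-A. Colon libraries of the genotypes thus correlated by number more than the tissue pairs did on average, and whether their numbers mark pairs was not settled. In the test of genotype by tissue, DESeq2 called 257 genes, the replicate block 342, and the fit without number 7 called 43. The block changed no tissue call but that of Cdk4 in WT.

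The sign turned with plain library totals for Cdk6 (-0.0065) and Cdkn1a (-0.0174) by genotype in colon, Cdk4 in the tissue comparison of WT (0.4649), Cdkn1c in that of 9S/T-A (0.181), and, for genotype by tissue, Cdkn1b (0.0892) and Myc (0.0881). It also turned for Cdkn1b by tissue and genotype without a filter (0.0213), with a mean of at least 10 counts (0.017) and without number 7 (0.053), for Myc without a filter (0.0028), and for Cdkn2b in colon without number 7 (0.0432). Of these, Cdk4 with plain totals was called and the others were not, and the cause was not tested beyond the shift of all genes.

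With each library left out, members called ranged from 0 to 2 in SI, 0 to 0 in colon, 8 to 9 for tissue in WT and 5 to 8 in 9S/T-A, and genes called from 188 to 550 in SI, 30 to 72 in colon, 50 to 112 for genotype by tissue, 10446 to 11316 for tissue in WT and 9945 to 10873 in 9S/T-A. Values that crossed 0 were, by genotype, Cdk6 in SI (-0.0942 to 0.0039), and in colon Cdk4 (-0.0449 to 0.0372), Cdk6 (-0.0158 to 0.087), Cdkn1a (-0.0745 to 0.1196), Cdkn1b (-0.1676 to 0.017) and Cdkn2b (-0.1606 to 0.1042). For genotype by tissue they were Cdkn1b (-0.0642 to 0.0917), Cdkn1c (-9e-04 to 0.2411) and Myc (-0.1081 to 0.0526). Cdkn1c had the fewest counts of the members, 108 to 435 per library.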
